A study of Chrysanthemum x morifolium with 40 samples.

Results

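Aquaporins are channel proteins that let water, and in some classes small uncharged solutes, cross cell membranes. They were taken here as every gene whose Swiss-Prot match, the closest curated protein in the authors' annotation, carries the word aquaporin in its protein name, which gave 221 of the 178540 genes in the table. By that name 21 were PIP1, 41 PIP2, 50 TIP, 93 NIP and 16 SIP genes. The match says which known protein a gene resembles most, not that it is that protein's counterpart. The Pfam MIP domain, the signature of the superfamily, was annotated for 186 of the 221.

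Roots of EWT ("Enhanced Waterlogging Tolerance"), a waterlogging-tolerant Chrysanthemum × morifolium cultivar, and of CK ('zaoxiaoyangju'), the waterlogging-sensitive conventional cultivar it was set against, were sampled from 8-week-old seedlings. The seedlings were covered with water to 2 cm above their upper leaves, and roots were taken at 0, 3, 12 and 24 h and after 24 h followed by 3 h of reoxygenation (24_3 h). Each of the 10 groups had 4 libraries, described as biological replicates, which gave 40 libraries of poly(A) RNA with 3517588 to 9929777 fragments counted on genes. No unflooded roots were taken after 0 h, so that waterlogging and time of day cannot be told apart, and each cultivar stands for 1 genotype. Levels are FPKM, fragments scaled by gene length and library size, which can be compared between genes.

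PIP proteins lie in the plasma membrane and set how easily water enters and leaves root cells, with PIP1 proteins often reaching that membrane together with PIP2 partners. TIP proteins lie in the tonoplast, the membrane of the vacuole. NIP proteins, named after nodulin-26 of soybean root nodules, carry solutes such as glycerol, boric acid and silicic acid, and SIP proteins are small basic channels found in the endoplasmic reticulum of Arabidopsis. Low oxygen and cell acidification are known to close PIP channels and to lower the water uptake of roots in several plants.

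Of the 221 genes, 117 had at least 1 FPKM in at least 4 libraries and were tested: 16 of 21 PIP1, 25 of 41 PIP2, 33 of 50 TIP, 33 of 93 NIP and 10 of 16 SIP genes. Another 58 were at 0 in all 40 libraries, of which 39 were NIP genes, and the rest were detected below that limit. A gene could pass through the group in which it was high, so the counts below describe the 117 and not the family. A gene was called when its Benjamini-Hochberg adjusted p in limma, fitted over all 89517 tested genes, was at most 0.05 and its fold change on the log2(FPKM + 0.1) scale at least 2. In the text a value with ± and SE is a log2 fold change on that scale, and its adjusted p is from limma. Several members share a Swiss-Prot match and may be close copies. The sources used here do not say how fragments that fit more than 1 copy were counted, so the level of a single copy is less certain than that of its type.

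Genes of low-oxygen metabolism and of root tissues were read as a check of the labels. Summed FPKM of the 47 pyruvate decarboxylase genes, which open ethanol fermentation, was 5605 to 10973 in EWT and 10202 to 13533 in CK libraries at 24 h, against 83.9 to 123 in EWT and 70.7 to 99.6 in CK libraries at 0 h. All 5 SHORT-ROOT genes, which mark the root stele, were above 0 in every group. Their sums were 18.4 to 26 FPKM in EWT and 13.5 to 16.7 FPKM in CK at 24 h, against 30.0 to 39.5 FPKM in EWT and 31.2 to 44.8 FPKM in CK at 0 h. At 24 h 3 of the 5 were called lower in EWT and 5 in CK. The 150 genes with SCARECROW anywhere in the protein name were read too. The match on that word does not limit the list to SCARECROW itself, so it need not mark the root. These 150 genes summed to 609 to 693 FPKM in EWT at 24 h, against 788 to 959 FPKM at 0 h. In CK the sums were 690 to 732 FPKM at 24 h, against 1047 to 1148 FPKM at 0 h. Casparian strip membrane proteins mark the endodermis, and their 30 genes summed to 0.587 to 8.58 FPKM in EWT and 2.64 to 5.98 FPKM in CK at 24 h, against 48.2 to 89.3 FPKM in EWT and 63.5 to 85.0 FPKM in CK at 0 h. Of these 30 genes, 13 in EWT and 20 in CK were at 0 in all 4 libraries at 24 h, against 7 in EWT and 3 in CK at 0 h. The 24 genes of the small subunit of ribulose bisphosphate carboxylase, a marker of green tissue, summed to 22.7 to 57.5 FPKM in EWT and 64.9 to 183 FPKM in CK at 24 h, against 5.01 to 8.13 FPKM in EWT and 7.48 to 11.0 FPKM in CK at 0 h. The 155 chlorophyll a-b binding protein genes, another marker of green tissue, summed to 68.0 to 93.8 FPKM in EWT and 43.2 to 158 FPKM in CK at 24 h, against 41.9 to 58.1 FPKM in EWT and 29.7 to 83.9 FPKM in CK at 0 h, so that the groups overlapped in CK. Of the 50 of these that were tested, 7 were called higher and 3 lower in EWT and 7 and 4 in CK. At 24 h 19.3% of all tested genes were called higher and 26.7% lower in EWT, and 20.4% and 28.6% in CK. The SHORT-ROOT, SCARECROW and Casparian strip genes and the small subunit genes moved with flooding time. So did the chlorophyll a-b binding protein genes in EWT, with 122 to 132 FPKM at 12 h, against 32.0 to 67.8 FPKM in CK at 12 h. The part of all these genes in the aquaporin changes was not tested. In whole roots, fewer cells of a type and less RNA per cell cannot be told apart.

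Of the 117 tested aquaporins, 75 were called lower at 24 h than at 0 h in each cultivar, and a few abundant ones were higher. At 0 h they took 1.21% to 1.69% of all fragments in EWT and 1.09% to 1.34% in CK libraries. At 12 h the share was 0.944% to 1.08% in EWT and 0.534% to 0.71% in CK libraries. After 24 h it was 0.531% to 0.662% in EWT and 0.299% to 0.403% in CK libraries. The number of aquaporin genes with a mean of at least 100 FPKM was 28, 12, 14, 11 and 7 in EWT at 0, 3, 12, 24 and 24_3 h, and 24, 7, 12, 7 and 5 in CK. Summed FPKM of all aquaporins averaged 10254 ± 2153, 6843 ± 1969, 11436 ± 1128, 5904 ± 742 and 2389 ± 443 in EWT (SD, n = 4) at 0, 3, 12, 24 and 24_3 h, and 8959 ± 1114, 4192 ± 848, 6595 ± 1426, 3909 ± 399 and 1891 ± 311 in CK. At 12 h the 2 measures did not agree for EWT, since its FPKM sum was within the 0 h range while its share of fragments was below that of every 0 h library. The deposited FPKM were scaled by a library size other than the fragment total, and with all fragments as the library size 26 of 60 sums, over types and groups, moved by more than 1 SD. The types did not move alike, as the plot of summed FPKM by type shows.

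**Figure D1:**
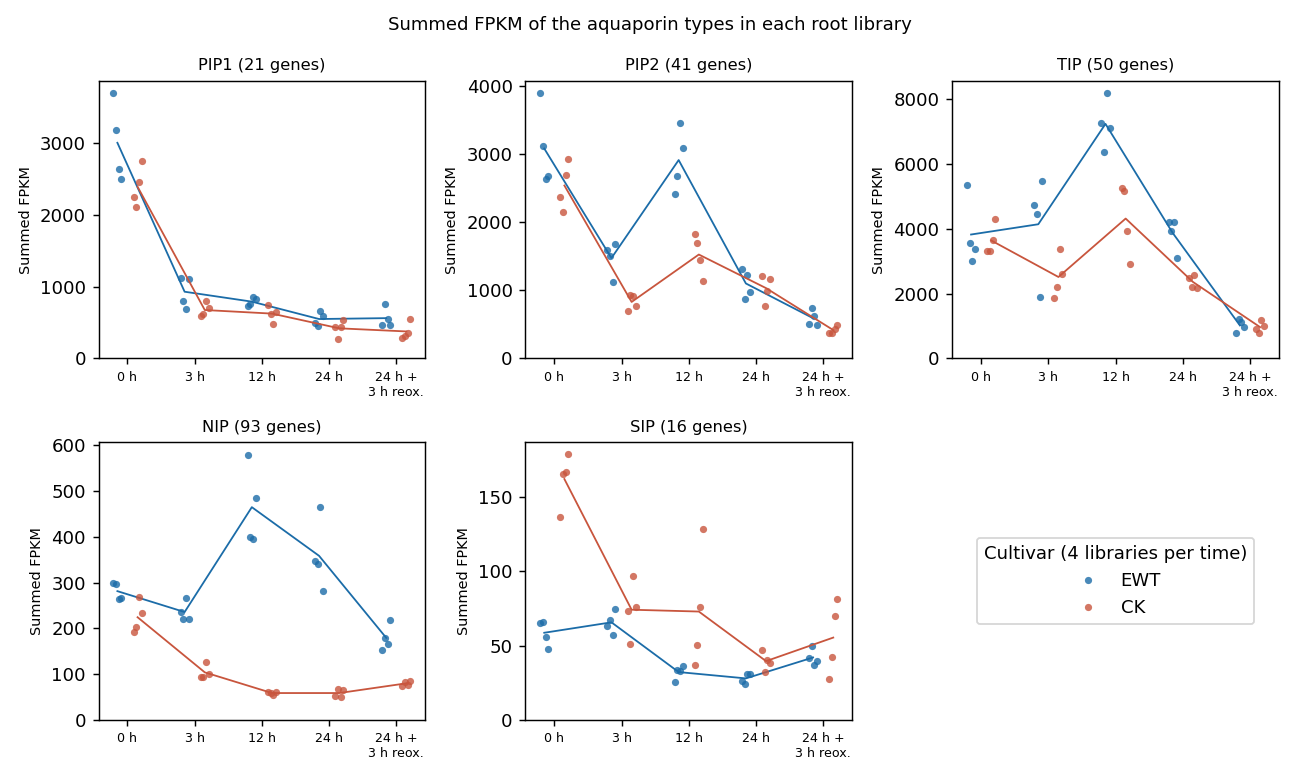
Summed FPKM of the genes of each aquaporin type (y axis, linear, starting at 0) against sampling time (x axis). Each point is 1 library and each line joins the means of 4 libraries, with EWT left of CK at each time. PIP1 sums drop in both cultivars between 0 and 3 h, TIP sums are highest at 12 h in both on this FPKM scale, and NIP sums at 24 h are 281 to 465 FPKM in EWT and 49.2 to 66.6 FPKM in CK.

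Summed PIP1 FPKM averaged 3007 ± 545, 929.7 ± 217, 791 ± 63.0, 549 ± 96.1 and 561 ± 140.3 in EWT (SD, n = 4) at 0, 3, 12, 24 and 24_3 h, and 2394 ± 283, 675 ± 92.3, 624 ± 107, 419 ± 113 and 376 ± 123 in CK. The PIP1 sum at 24 h was 18.3% of that at 0 h in EWT and 17.5% in CK. Summed TIP FPKM averaged 3819 ± 1040.3, 4136 ± 1556, 7230.4 ± 744, 3867 ± 522 and 1015 ± 194 in EWT, and 3636 ± 474, 2509.6 ± 657, 4311 ± 1112, 2358 ± 206 and 964 ± 162 in CK. At 12 h the TIP sum was above every 0 h library of the same cultivar in all 4 EWT libraries, and in CK the ranges overlapped, with 2915 to 5266 FPKM at 12 h against 3298 to 4306 FPKM at 0 h. As a share of all fragments the TIP genes in EWT took 0.532% to 0.622% at 12 h. At 0 h they took 0.335% to 0.559% and at 3 h 0.211% to 0.567%. The 12 h range of EWT had the highest bounds of all sampling times but overlapped those of 0 and 3 h. The CK share did not show the peak, with 0.274% to 0.412% at 12 h, against 0.381% to 0.464% at 0 h. These sums are descriptions and were not tested.

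The comparison of each flooding time with 0 h asked which aquaporin genes responded in each cultivar. In EWT, 9 genes were called higher and 53 lower at 3 h, 18 and 61 at 12 h, and 16 and 75 at 24 h, of 117 tested. Among all genes tested in EWT, 8.96% were called higher and 12.7% lower at 3 h, 20.2% and 26.5% at 12 h, and 19.3% and 26.7% at 24 h. In CK, 0 genes were called higher and 62 lower at 3 h, 16 and 67 at 12 h, and 9 and 75 at 24 h. Among all genes tested in CK, 11.3% were higher and 14.2% lower at 3 h, 18.4% and 27.1% at 12 h, and 20.4% and 28.6% at 24 h. The 0 of CK at 3 h came from limma on FPKM, and 4 aquaporins were higher at an unadjusted p of 0.05 with the same fold and 2 with voom on the recovered fragments. Calls of lower level thus made up a larger part of the aquaporins than of all genes at each time, and calls of higher level a smaller part. The median log2 fold change of the 117 was -1.07, -1.63 and -2.49 in EWT at 3, 12 and 24 h, against -0.13, -0.12 and -0.15 for all genes, and -1.50, -1.90 and -2.67 in CK, against -0.03, -0.17 and -0.15 for all genes. The 4 libraries at 24 h lay wholly below the 4 at 0 h for all 75 genes called lower in EWT and for all 75 in CK. Among all genes called lower at 24 h this held for 20736 of 23889 in EWT and 21267 of 25558 in CK. Groups wholly apart were thus usual for a gene called lower.

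The lists of both cultivars overlapped: 49 genes were called lower in EWT and in CK at 3 h, 58 at 12 h and 69 at 24 h. The 69 were 92.0% of the 75 lower in EWT and 92.0% of the 75 lower in CK. No aquaporin was called in opposite directions in the cultivars at 3, 12 or 24 h. The same overlap was not counted over all genes, so it cannot be read as particular to aquaporins. In EWT 47 genes were lower and 9 higher at all 3 times, and in CK 56 were lower and 0 higher, while 23 in each cultivar were called at none of them. The 3 comparisons within a cultivar share their 0 h libraries.

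**Figure D2:**
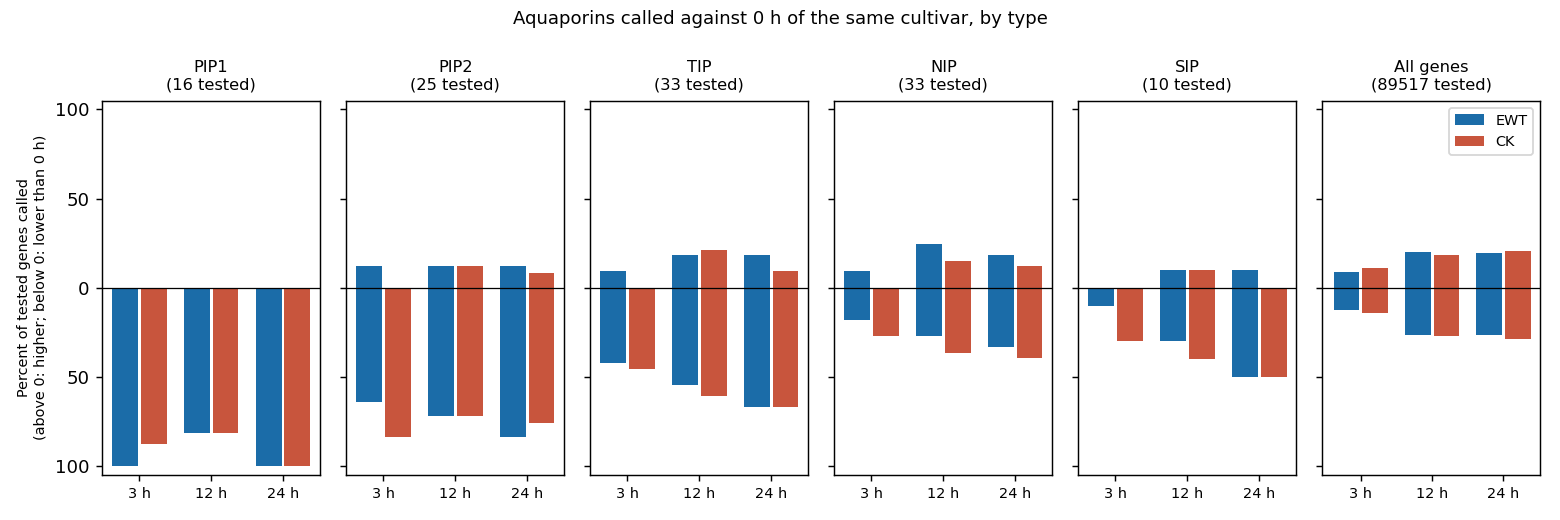
Percent of the tested genes of each aquaporin type, and of all tested genes, called higher (bars above 0) or lower (bars below 0) than at 0 h of the same cultivar (y axis) at 3, 12 and 24 h (x axis), EWT left of CK. All 16 tested PIP1 genes are lower at 24 h in both cultivars, whereas 11 of 33 NIP genes in EWT and 13 of 33 in CK are.

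PIP1 genes fell together. All 16 tested PIP1 genes were called lower in EWT at 3 h and at 24 h and 13 at 12 h. In CK 14 were lower at 3 h, 13 at 12 h and 16 at 24 h, and none was higher at any time in either cultivar. The median log2 fold change of the 16 at 24 h was -6.09 in EWT and -4.24 in CK. Single genes ranged in EWT between -9.34 and -1.13 and in CK between -7.83 and -1.12. Taken gene by gene, the EWT change less the CK change at 24 h had a median of -0.07, and 1 of the 16 was called for it. The medians of the cultivars are thus no measure of a deeper fall in EWT.

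The deepest fall in EWT was in evm_TU_scaffold_965_251, a PIP1-5 match of Arabidopsis with 1015 counted bases at chr8:238812943-238864724, + strand, in the coordinates of the authors' genome, whose build the sources used here do not name. It had 0.223, 0, 0 and 0 FPKM in EWT at 24 h, against 88.5, 94.4, 79.0 and 85.2 FPKM at 0 h (-9.34 ± 0.63 SE, adjusted p = 8.91e-15). In CK it had 0.805, 0, 0 and 0 FPKM at 24 h, against 26.2, 19.1, 33.0 and 26.3 FPKM at 0 h (-7.22 ± 0.63 SE, adjusted p = 6.01e-12). The gene was near or at 0 from 3 h on in both cultivars, and the groups did not overlap. At 12 h all 4 EWT libraries were at 0, and with 3 fragments over the group as the limit of detection the level was at least 625-fold lower than at 0 h. After reoxygenation it had 1.41, 2.89, 1.87 and 0.868 FPKM in EWT and 0.647, 0.391, 0.764 and 1.44 FPKM in CK. The increase over 24 h was called in EWT (3.67 ± 0.63 SE, adjusted p = 3.12e-05) and in CK (2.27 ± 0.63 SE, adjusted p = 0.00509), where it was not called with a pseudocount of 1 or with the 2 groups fitted alone. All of these reoxygenated libraries lay far below 0 h.

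Before flooding the same gene was higher in every EWT library than in any CK library (1.75 ± 0.63 SE, adjusted p = 0.028). This call rests on few libraries: the adjusted p was 0.0741 without CK replicate 2 (log2 fold change 1.61), 0.0526 without EWT replicate 1 (1.74), 0.0577 without EWT replicate 2 (1.71) and 0.0508 without EWT replicate 4 (1.76). Its neighbour evm_TU_scaffold_965_250, another PIP1-5 match 16025 bases upstream, was added after its values were seen. It had 90.2, 79.9, 70.9 and 74.4 FPKM in EWT and 22.9, 17.0, 24.3 and 23.1 FPKM in CK at 0 h, and 0.38, 0, 0.863 and 0.385 FPKM in EWT and 0, 0, 0 and 0 FPKM in CK at 24 h. Both neighbours thus showed the same order of the cultivars at 0 h and the same loss under water.

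A further pair lies side by side on chromosome 7. evm_TU_scaffold_3999_165_evm_TU_scaffold_3999_166, a PIP1-5 match at chr7:232567649-232596048, + strand, had 0.922, 1.66, 2.23 and 0.747 FPKM in EWT at 24 h, against 294, 232, 194 and 202 FPKM at 0 h (-7.37 ± 0.54 SE, adjusted p = 6.56e-14), and 2.00, 0.832, 0.738 and 0.779 FPKM in CK at 24 h, against 227, 193, 288 and 309 FPKM at 0 h (-7.83 ± 0.54 SE, adjusted p = 1.15e-14). After reoxygenation it had 10.9, 31.1, 17.5 and 5.65 FPKM in EWT and 8.03, 15.2, 10.4 and 17.0 FPKM in CK, all above the 24 h libraries of the same cultivar. evm_TU_scaffold_3999_167, a PIP1-2 match 2078 bases downstream, had 0 to 0.758 FPKM in EWT and 0 to 0.758 FPKM in CK at 24 h, against 56.6 to 87.6 FPKM in EWT and 22.6 to 37.4 FPKM in CK at 0 h.

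The PIP1 genes with the highest mean fell less. evm_TU_scaffold_54_29, a PIP1-3 match, had 134, 120.1, 177 and 193 FPKM in EWT at 24 h, against 891, 865, 687 and 624 FPKM at 0 h (-2.31 ± 0.24 SE, adjusted p = 5.67e-10), and 149, 67.8, 120.2 and 176 FPKM in CK at 24 h, against 819, 775, 881 and 924 FPKM at 0 h (-2.81 ± 0.24 SE, adjusted p = 4.62e-12). Its levels in EWT and CK overlapped at 0 h. Another PIP1-3 match, evm_TU_scaffold_1353_175, was higher in EWT at 0, 12 and 24 h, with 666, 592, 515 and 452 FPKM in EWT and 188, 183, 194 and 233 FPKM in CK at 0 h (1.47 ± 0.25 SE, adjusted p = 9.52e-06). At 24 h it had 78.4, 66.4, 144 and 124 FPKM in EWT and 30.7, 18.7, 32.3 and 36.4 FPKM in CK (1.77 ± 0.25 SE, adjusted p = 2.31e-07). The EWT change less the CK change at 24 h was 0.30 ± 0.35 (SE, adjusted p = 0.651).

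**Figure D3:**
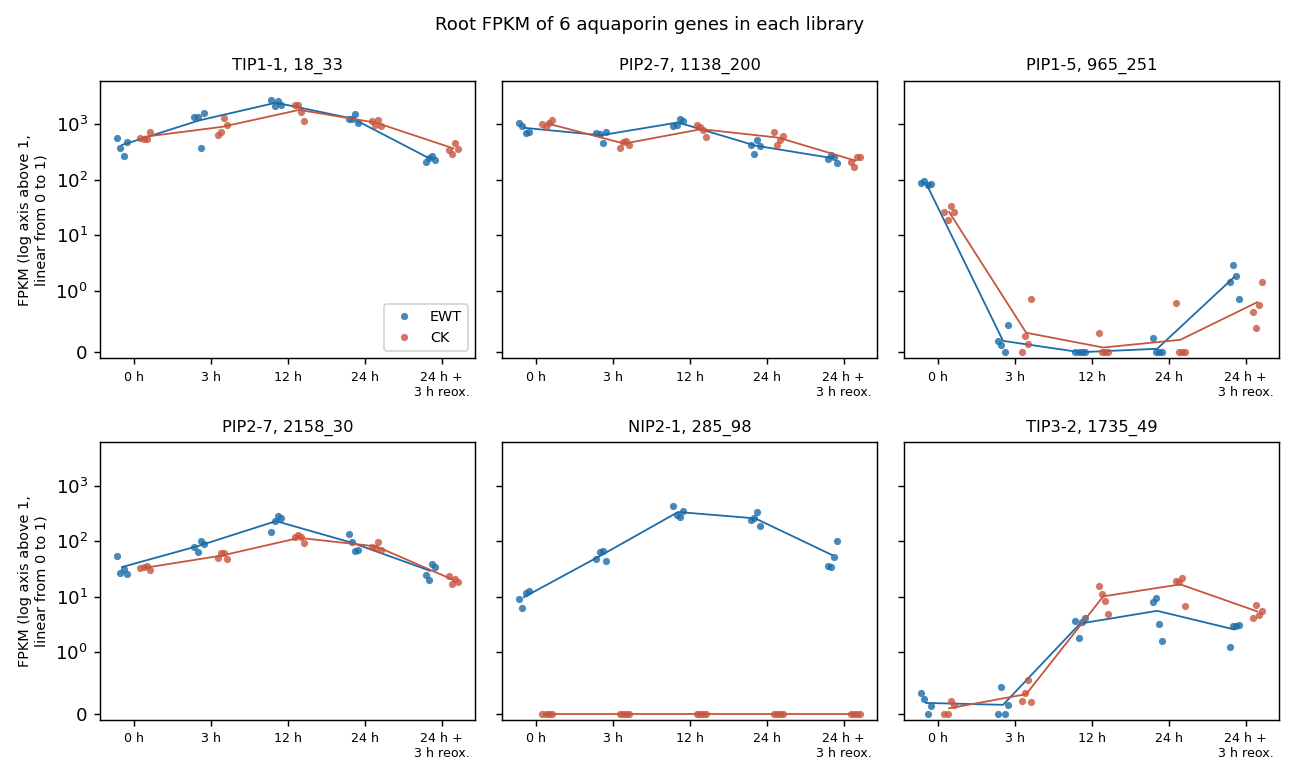
FPKM of 6 aquaporin genes in each library (y axis, logarithmic above 1 and linear from 0 to 1) against sampling time (x axis), points for libraries and lines through the means of 4, EWT left of CK. The PIP1-5 gene drops to near 0 in both cultivars, the TIP1-1 and Arabidopsis-like PIP2-7 genes are highest at 12 h, the NIP2-1 gene is at 0 in all 20 CK libraries, and the TIP3-2 gene appears from 12 h.

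PIP2 genes, the main water channels of the plasma membrane, were mostly lower but included genes that went the other way. Of 25 tested, 16 were called lower and 3 higher in EWT at 3 h, 18 and 3 at 12 h, and 21 and 3 at 24 h, with a median log2 fold change of -3.77 at 24 h. In CK 21 were lower and 0 higher at 3 h, 18 and 3 at 12 h, and 19 and 2 at 24 h, with a median of -3.87 at 24 h. On the FPKM scale the PIP2 sum was higher at 12 h than at 3 h, with 3088 ± 586, 1476 ± 245, 2918 ± 454, 1102 ± 208 and 591 ± 121 FPKM in EWT (SD, n = 4) at 0, 3, 12, 24 and 24_3 h, and 2543 ± 344, 830.3 ± 118, 1528 ± 308, 1034 ± 202 and 417 ± 59.3 FPKM in CK. As a share of all fragments PIP2 genes took 0.244% to 0.334% in EWT and 0.143% to 0.189% in CK at 12 h, against 0.389% to 0.532% in EWT and 0.307% to 0.393% in CK at 0 h, so that every 12 h library was below every 0 h library of its cultivar.

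The PIP2 genes called higher at 24 h all matched PIP2-7 of Arabidopsis and are named because so few were higher, after their values were seen. evm_TU_scaffold_2158_30, at chr25:158135025-158137993, - strand, had 147, 230.5, 283 and 255 FPKM in EWT at 12 h and 133, 97.9, 67.5 and 69.6 FPKM at 24 h, against 53.3, 26.4, 31.1 and 25.0 FPKM at 0 h. In CK it had 120.0, 127, 119 and 90.5 FPKM at 12 h and 78.0, 75.7, 97.8 and 68.9 FPKM at 24 h, against 33.2, 33.4, 35.5 and 29.8 FPKM at 0 h. At both times every flooded library was above every 0 h library of its cultivar, and the log2 fold change was 2.78 ± 0.23 SE, adjusted p = 9.92e-13 in EWT and 1.78 ± 0.23 SE, adjusted p = 3.16e-08 in CK at 12 h. The 24 h values were 1.45 ± 0.23 in EWT and 1.27 ± 0.23 in CK (adjusted p = 1.51e-06 and 1.13e-05), and when libraries were scaled by all fragments the CK value became 0.82, under the fold threshold. After reoxygenation the gene fell to 24.2, 20.0, 37.9 and 34.1 FPKM in EWT and 23.4, 17.1, 20.8 and 18.5 FPKM in CK, and the change from 24 h was called lower in both cultivars.

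evm_TU_scaffold_12287_199 followed the same course at lower levels, with 72.4, 84.2, 103 and 78.6 FPKM in EWT at 12 h, against 17.2, 8.37, 10.7 and 9.43 FPKM at 0 h, and 43.7, 44.8, 41.2 and 30.9 FPKM in CK at 12 h, against 12.7, 10.6, 14.3 and 6.92 FPKM at 0 h. Its call at 24 h in CK (1.08 ± 0.25 SE, adjusted p = 3.86e-04) was lost under the fold threshold without CK replicate 4 at 0 h (log2 fold change 0.87) or CK replicate 1 (0.98) or 3 (0.96) at 24 h, and with all-fragment scaling (0.63). evm_TU_scaffold_710_92, on an unplaced scaffold, was called at 24 h in EWT (1.59 ± 0.20 SE, adjusted p = 3.47e-08), while in CK it reached 0.97 ± 0.20 (adjusted p = 1.16e-04), just under the fold threshold. The 12 h change of evm_TU_scaffold_710_92 was larger in EWT than in CK by 1.17 ± 0.29 SE, adjusted p = 0.00528.

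The PIP2 genes with the highest means matched PIP2-7 of Zea mays and dipped rather than vanished. evm_TU_scaffold_1138_200 had 421, 289.7, 526 and 411 FPKM in EWT at 24 h, against 1067, 936, 700.1 and 737 FPKM at 0 h (-1.07 ± 0.19 SE, adjusted p = 9.71e-06). In CK it had 731, 428, 509 and 624 FPKM at 24 h, against 1010.1, 880.0, 1068 and 1178 FPKM at 0 h, which was -0.87 ± 0.19 (adjusted p = 1.56e-04) and under the fold threshold. The EWT call was likewise under it without EWT replicate 1 at 0 h (-0.96) or EWT replicate 2 at 24 h (-0.91). At 12 h neither cultivar was called, and every library at 12 h had at least 597 FPKM. evm_TU_scaffold_6949_232 was higher in EWT at 0 h, with 688, 554, 425 and 417 FPKM in EWT and 206, 180.2, 242 and 278 FPKM in CK (1.19 ± 0.22 SE, adjusted p = 3.18e-05), and at 12 h, with 596, 678, 817 and 719.9 FPKM in EWT and 226, 196, 161 and 128 FPKM in CK (2.00 ± 0.22 SE, adjusted p = 1.11e-09). The difference of its 12 h changes was 0.82 ± 0.31 (adjusted p = 0.0807) and was not called.

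A related Zea mays PIP2-7 match, evm_TU_scaffold_344_54, was singled out after its values were seen. It had 429.7, 500.5, 572 and 509 FPKM in EWT and 177, 154, 125 and 101 FPKM in CK at 12 h (1.88 ± 0.21 SE, adjusted p = 2.14e-09). At 0 h the cultivars overlapped, with 351, 294, 229 and 241 FPKM in EWT and 199, 166, 212 and 239.6 FPKM in CK. The change from 0 h to 12 h was larger in EWT by 1.43 ± 0.29 SE, adjusted p = 8.70e-04.

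TIP genes split by subgroup. The 12 tested TIP1 genes, the type that carries most water across the tonoplast in Arabidopsis, divided into 5 lower and 3 higher in EWT at 24 h and 6 lower and 0 higher in CK. All 5 tested TIP2 genes, whose Arabidopsis namesake also passes ammonia, were lower at 24 h in both cultivars, with medians of -6.28 in EWT and -7.31 in CK. All 3 tested TIP4 genes were lower in both, and of 9 matches of RB7, a root-specific TIP of tobacco, 9 were lower in EWT and 8 in CK. In contrast, all 3 TIP3 genes were higher at 24 h in both cultivars. The 3 TIP5 genes stayed below the limit for testing.

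The TIP sum was carried by 3 TIP1-1 matches. Together they made up 31.5%, 75.6%, 87.8%, 90.6% and 63.8% of the TIP sum in EWT at 0, 3, 12, 24 and 24_3 h, and 34.4%, 72.8%, 82.5%, 85.1% and 73.2% in CK. evm_TU_scaffold_18_33, at chr20:50329646-50331367, - strand, was the highest of all 221 aquaporins in both cultivars at 3, 12 and 24 h. In EWT it had 2764, 2135, 2604 and 2262 FPKM at 12 h and 1245, 1222, 1515 and 1034 FPKM at 24 h, against 571, 371, 271 and 478 FPKM at 0 h. In CK it had 2194, 2216, 1683 and 1151 FPKM at 12 h and 1125, 987, 1191 and 943 FPKM at 24 h, against 565, 538, 542 and 734 FPKM at 0 h. At both times all flooded libraries were above all 0 h libraries of the same cultivar. The change was called in EWT at 12 h (2.58 ± 0.29 SE, adjusted p = 1.80e-09) and 24 h (1.61 ± 0.29 SE, adjusted p = 1.32e-05) and in CK at 12 h (1.57 ± 0.29 SE, adjusted p = 1.95e-05), whereas CK at 24 h was under the fold threshold (0.84 ± 0.29 SE, adjusted p = 0.0129). The difference between the cultivars' changes was not called at 12 h (1.01 ± 0.41, adjusted p = 0.11) or 24 h (0.77 ± 0.41, adjusted p = 0.238).

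At 3 h evm_TU_scaffold_18_33 had 1364, 1355, 366 and 1593 FPKM in EWT, so that replicate 3 lay within the 0 h range while the others were far above it. With the 3 h and 0 h groups of EWT fitted alone, the 3 TIP1-1 calls at 3 h were lost, and that of evm_TU_scaffold_10013_45 was also under the fold threshold without EWT replicate 4 at 3 h (log2 fold change 0.93). evm_TU_scaffold_727_102 had 1346, 1246, 1277 and 964 FPKM in EWT at 24 h, against 607, 407, 302 and 461 FPKM at 0 h (1.48 ± 0.29 SE, adjusted p = 4.76e-05). evm_TU_scaffold_10013_45, added after its values were seen, had 1178, 1090.1, 1059 and 837 FPKM in EWT and 382, 358, 409 and 308 FPKM in CK at 24 h (1.51 ± 0.29 SE, adjusted p = 4.81e-05), with no overlap. At 0 h it had 505, 267, 229.8 and 335 FPKM in EWT and 281, 272, 276 and 377 FPKM in CK, which overlapped, and its 24 h change was larger in EWT by 1.42 ± 0.41 SE, adjusted p = 0.0176.

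After reoxygenation the most abundant of them was below its 0 h level. evm_TU_scaffold_18_33 had 209.5, 242, 269.8 and 228 FPKM in EWT at 24_3 h (-2.39 ± 0.29 SE, adjusted p = 1.30e-07 against 24 h) and 348, 289, 465 and 364 FPKM in CK (-1.55 ± 0.29 SE, adjusted p = 6.94e-05). Every reoxygenated library of this gene was below every 0 h library of its cultivar.

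Another TIP1-1 match went the opposite way and marked the cultivars apart. evm_TU_scaffold_1557_372, at chr18:320909728-320913056, + strand, had 24.2, 7.21, 12.1 and 17.6 FPKM in EWT and 428, 518, 424 and 439 FPKM in CK at 0 h (-5.01 ± 0.33 SE, adjusted p = 1.42e-14). At 24 h it had 2.91, 2.53, 2.05 and 1.18 FPKM in EWT and 19.9, 19.3, 22.3 and 23.0 FPKM in CK (-3.29 ± 0.33 SE, adjusted p = 2.54e-10). It was lower in every EWT library than in any CK library at both times, and its 24 h change in EWT less its 24 h change in CK was 1.72 ± 0.47 SE, adjusted p = 0.0121.

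A pair of TIP1-2 matches of rice, evm_TU_scaffold_508_222 on chromosome 15 and evm_TU_scaffold_7365_29 on chromosome 14, have the same counted length of 759 bases and may be close copies. evm_TU_scaffold_508_222 had 22.2, 21.4, 18.2 and 18.8 FPKM in EWT and 2.05, 0.348, 1.86 and 0.457 FPKM in CK at 0 h (4.31 ± 0.55 SE, adjusted p = 6.18e-08), without overlap. Under water it was almost lost, with 0 in all 4 libraries of both cultivars at 24 h, which was at least 108-fold lower than at 0 h in EWT and at least 4.54-fold lower in CK. evm_TU_scaffold_7365_29 had 6.36, 7.90, 9.42 and 7.12 FPKM in EWT and 1.31, 0.522, 1.45 and 0.152 FPKM in CK at 0 h and was at 0 in all libraries of both cultivars at 3, 12 and 24 h. The test called the changes of both genes at 24 h different between the cultivars, but with 0 in both at 24 h that difference is the one already present at 0 h.

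A TIP1-3 match, evm_TU_scaffold_9204_123, was detected mainly in CK before flooding, with 0, 0, 0 and 0.635 FPKM in EWT and 3.73, 2.03, 6.20 and 1.52 FPKM in CK at 0 h (-4.20 ± 0.58 SE, adjusted p = 3.43e-07). It was at 0 in all libraries of both cultivars at 24 h. Its counted length is 456 bases, so that few fragments stand behind these values. The TIP2-1 match evm_TU_scaffold_1505_118 showed the largest fall of all aquaporins in CK at 24 h, with 0, 0, 0 and 0.221 FPKM at 24 h, against 35.9, 36.3, 39.8 and 70.5 FPKM at 0 h (-8.36 ± 0.90 SE, adjusted p = 7.99e-10). In EWT it had 0, 0.209, 0.474 and 0.848 FPKM at 24 h, against 104, 55.7, 36.8 and 37.0 FPKM at 0 h (-7.20 ± 0.90 SE, adjusted p = 2.23e-08). It did not return after reoxygenation, with 0 to 0.472 FPKM in EWT and 0 to 0.209 FPKM in CK.

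TIP3 genes are expressed mainly in seeds in Arabidopsis, and all 3 matches of TIP3-2 were at or near 0 in these roots before flooding. evm_TU_scaffold_1735_49, at chr4:34715902-34717844, + strand, had 8.06, 9.21, 3.26 and 1.55 FPKM in EWT at 24 h, against 0.335, 0.235, 0 and 0.123 FPKM at 0 h (4.25 ± 0.55 SE, adjusted p = 5.06e-08), and 19.1, 18.6, 21.9 and 6.69 FPKM in CK at 24 h, against 0, 0, 0.20 and 0.147 FPKM at 0 h (6.53 ± 0.55 SE, adjusted p = 2.76e-12). In both cultivars the groups did not overlap. evm_TU_scaffold_1096_52 was at 0 in all 8 libraries at 0 h and had 7.28, 2.91, 1.10 and 0.983 FPKM in EWT and 7.36, 7.45, 6.70 and 3.08 FPKM in CK at 24 h, at least 33.8-fold higher than at 0 h in EWT and at least 47.2-fold higher in CK. The remaining match, evm_TU_scaffold_1863_73, added after its values were seen, was also at 0 in those 8 libraries and had 0.535, 0.804, 0.607 and 0.361 FPKM in EWT and 8.38, 4.43, 4.82 and 1.70 FPKM in CK at 24 h. At 24 h evm_TU_scaffold_1863_73 was lower in every EWT library than in any CK library (-2.71 ± 0.52 SE, adjusted p = 4.72e-05), while the libraries of evm_TU_scaffold_1735_49 overlapped. The 24 h change of evm_TU_scaffold_1735_49 was smaller in EWT by the test (-2.28 ± 0.78 SE, adjusted p = 0.0486), a call that was lost in 15 of 25 alternatives. Among these were leaving out CK replicate 1 or 2 or EWT replicate 1, 2 or 4 at 0 h, and CK replicate 1, 2 or 3 or EWT replicate 3 or 4 at 24 h, with adjusted p from 0.0645 to 0.132. All TIP3-2 matches passed the limit for testing only through libraries of flooded or reoxygenated roots. At a few FPKM these genes stood far below the TIP1-1 genes.

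NIP genes changed in both directions. In EWT 6 were called lower and 3 higher at 3 h, 9 and 8 at 12 h, and 11 and 6 at 24 h, of 33 tested. In CK 9 were lower and 0 higher at 3 h, 12 and 5 at 12 h, and 13 and 4 at 24 h. Of all tested genes 26.7% were lower and 19.3% higher in EWT at 24 h, and 28.6% and 20.4% in CK, so that the NIP counts in EWT were near those shares. The median log2 fold change of the NIP genes at 24 h was 0.00 in EWT and -0.38 in CK. By subgroup, all 4 NIP3 genes were lower at 24 h in both cultivars, as was the single tested NIP6 gene. Of 5 NIP5-1 matches, whose Arabidopsis namesake takes up boric acid in roots, 0 were lower and 3 higher in EWT, and 1 was lower and 1 higher in CK. None of the 5 NIP5-1 matches carries the MIP domain in the annotation.

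The highest NIP gene was detected in EWT and in no CK library. evm_TU_scaffold_285_98, a match of the maize NIP2-1, has 795 counted bases at chr3:251782925-251789823, + strand. Maize and rice NIP2-1 are silicic acid channels of roots, and the Arabidopsis channel of that name passes lactic acid and is induced by low oxygen, but a shared name does not make this gene the counterpart of either. In EWT it had 8.94, 6.15, 11.5 and 12.4 FPKM at 0 h, 47.3, 63.5, 67.1 and 43.0 FPKM at 3 h, 429, 293, 267 and 348 FPKM at 12 h, 241, 262, 334 and 189 FPKM at 24 h and 35.3, 34.0, 52.1 and 102 FPKM at 24_3 h. All 20 CK libraries were at 0. Every EWT library at 3, 12 and 24 h was above every EWT library at 0 h, and the log2 fold change in EWT was 2.51 ± 0.26 SE, adjusted p = 7.70e-10 at 3 h, 5.11 ± 0.26 SE, adjusted p = 2.15e-18 at 12 h and 4.72 ± 0.26 SE, adjusted p = 2.28e-17 at 24 h. After reoxygenation it was lower than at 24 h (-2.32 ± 0.26 SE, adjusted p = 3.06e-08).

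In fragments, evm_TU_scaffold_285_98 had 13427 over the 20 EWT libraries, 53 to 1570 in each, and 0 over the 20 CK libraries. Taking 3 fragments per group of 4 libraries for the limit of detection, it was at least 76.6-fold higher in EWT at 0 h, at least 1323-fold higher at 12 h and at least 1035-fold higher at 24 h. These limits cover counting error only. Among the 20 genes next to it, 10 on each side, 18 had an EWT library above 0 and none shared its pattern of 0 in all CK libraries with EWT above 0. Among all 178540 genes, 1219 were at 0 in all CK and above 0 in all EWT libraries, and 74 the other way round. It was the single aquaporin of that kind. A gene that CK lacks and one whose CK sequence does not map cannot be told apart in this table. NIP2 genes, this one among them, made up 78.0% of the NIP sum in EWT and 19.3% in CK at 24 h.

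Other NIP2-1 matches also differed between the cultivars before flooding. evm_TU_scaffold_5813_41, a match of the rice gene that overlaps a neighbouring gene of low level, had 5.99, 5.87, 5.93 and 4.89 FPKM in EWT and 0, 0.155, 0.925 and 0 FPKM in CK at 0 h (4.67 ± 0.72 SE, adjusted p = 2.23e-06). evm_TU_scaffold_7966_16 showed the reverse, with 0 in all 4 EWT libraries and 3.74, 3.12, 5.24 and 7.39 FPKM in CK at 0 h, and was at least 49.7-fold lower in EWT. evm_TU_scaffold_1097_341 had 2.83, 5.88, 6.87 and 2.70 FPKM in EWT at 24_3 h, against 4.37, 0, 1.27 and 1.25 FPKM at 24 h. In CK it had 3.25, 2.65, 5.76 and 3.01 FPKM at 24_3 h, against 0, 0, 0 and 0.71 FPKM at 24 h, the largest increase of an aquaporin in CK after reoxygenation (4.42 ± 0.81 SE, adjusted p = 6.35e-05).

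A NIP7-1 match was called higher at 12 and 24 h in both cultivars, while the other one stayed below the limit for testing. The called gene passed that limit only through flooded libraries, in which it was high. Its 12 h calls were lost with a pseudocount of 1 (log2 fold change 0.74 in EWT and 0.58 in CK). The EWT mean at 12 h was 0.695 FPKM and rested on 10 fragments over the group. evm_TU_scaffold_285_84, 188851 bases from evm_TU_scaffold_285_98 on chromosome 3, had 3.35, 2.35, 3.04 and 0.905 FPKM in EWT at 24 h, against 0 in all 4 libraries at 0 h, and 4.44, 1.51, 3.02 and 1.42 FPKM in CK at 24 h, against 0, 0, 0.233 and 0 FPKM at 0 h. It was called higher in EWT (4.51 ± 0.64 SE, adjusted p = 2.96e-07) and in CK (4.17 ± 0.64 SE, adjusted p = 1.06e-06), and EWT and CK overlapped at 24 h. Within 3 h of reoxygenation it was back at 0 to 0.489 FPKM in EWT and 0 to 0.862 FPKM in CK, the largest fall of an aquaporin in that step in both cultivars (-3.34 ± 0.64 in EWT and -3.26 ± 0.64 in CK). In Arabidopsis NIP7-1 is known from developing anthers. A NIP5-1 match at chr2:264500769-264501794, - strand, chosen after its values were seen, was called higher at 24 h in both cultivars, with 8.81, 7.15, 4.68 and 5.47 FPKM in EWT at 24 h, against 0.646, 0.971, 0.742 and 1.12 FPKM at 0 h, and 4.87, 10.4, 7.39 and 7.05 FPKM in CK at 24 h, against 1.19, 2.22, 0.496 and 1.10 FPKM at 0 h.

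The NIP3-1 match evm_TU_scaffold_4568_88 fell and partly returned. It had 10.4, 5.76, 14.2 and 16.2 FPKM in EWT at 24 h, against 61.1, 68.9, 56.8 and 56.6 FPKM at 0 h (-2.47 ± 0.27 SE, adjusted p = 1.07e-09), and 2.80, 4.42, 5.76 and 9.97 FPKM in CK at 24 h, against 52.5, 52.5, 62.5 and 59.1 FPKM at 0 h (-3.42 ± 0.27 SE, adjusted p = 3.86e-13). After 3 h of reoxygenation it had 31.3, 38.4, 29.8 and 29.9 FPKM in EWT and 21.5, 24.1, 22.6 and 21.0 FPKM in CK, all above 24 h and all below 0 h of the same cultivar.

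SIP genes were the lowest type in most groups. Of 10 tested, 5 were called lower and 1 higher in EWT at 24 h, and 5 lower and 0 higher in CK. Their sum was 58.7 ± 8.46, 65.7 ± 7.30, 32.2 ± 4.56, 27.9 ± 3.26 and 42.0 ± 5.59 FPKM in EWT (SD, n = 4) at 0, 3, 12, 24 and 24_3 h, and 162 ± 18.0, 74.2 ± 18.8, 73.0 ± 40.4, 39.5 ± 5.98 and 55.4 ± 24.7 FPKM in CK. Most of the difference at 0 h came from 1 gene: evm_TU_scaffold_297_144, a SIP2-1 match, had 14.9, 17.4, 14.6 and 8.93 FPKM in EWT and 76.8, 96.4, 101 and 101 FPKM in CK (-2.78 ± 0.48 SE, adjusted p = 1.51e-05). At 24 h it had 1.01, 1.01, 1.33 and 6.13 FPKM in EWT and 26.1, 14.8, 13.9 and 16.5 FPKM in CK and was lower than at 0 h in both. evm_TU_scaffold_977_233, a SIP1-1 match, had 9.50, 8.88, 9.82 and 8.13 FPKM in EWT at 24 h, against 12.4, 10.9, 7.19 and 9.05 FPKM at 0 h, and it was called in none of the 13 comparisons.

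**Figure D4:**
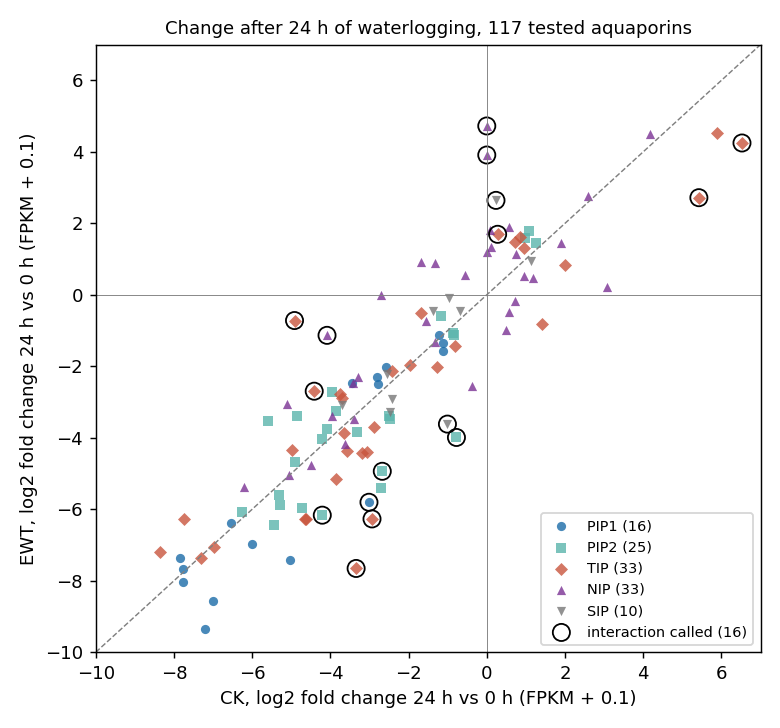
Log2 fold change at 24 h against 0 h in EWT (y axis) and in CK (x axis), on the log2(FPKM + 0.1) scale, for the 117 tested aquaporins by type, with the number of genes in brackets. Rings mark the 16 genes whose change differed between the cultivars by the interaction test, and the dashed line marks equal change. Most points lie in the lower left, where both cultivars are lower than at 0 h.

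EWT against CK asked how the cultivars differed at the same time. At 0 h 25 aquaporins were called higher and 8 lower in EWT, where 16.4% of all tested genes were higher and 13.6% lower. At 12 h 29 were higher and 19 lower, against 21.6% and 16.6% of all tested genes. At 24 h 33 were higher and 16 lower, against 21.5% and 17.4% of all tested genes. Higher calls made up 25 of 117 at 0 h and 33 of 117 at 24 h and lower calls 8 and 16. By type, NIP genes gave 9 higher and 3 lower at 0 h and 14 and 3 at 24 h, PIP2 genes 7 and 0 at 0 h and 8 and 5 at 24 h, TIP genes 4 and 3 at 0 h and 6 and 4 at 24 h, PIP1 genes 4 and 0 at 0 h and 3 and 1 at 24 h, and SIP genes 1 and 2 at 0 h and 2 and 3 at 24 h.

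The interaction, which sets the flooding response of EWT against that of CK, was called for few aquaporins. At 12 h 14 genes had a more positive change in EWT and 4 a more negative one, where 5.97% and 4.83% of all tested genes did, and scaling by all fragments made this 12 and 6. The 4 became 2 without EWT replicate 3 at 12 h and 7 without CK replicate 4 at 12 h. At 24 h 7 were more positive and 9 more negative, where 6.07% and 5.91% of all tested genes were. The 14 at 12 h were 5 PIP2, 5 TIP and 4 NIP genes, and PIP1 and SIP genes gave 0. The count at 12 h ran from 10 to 36 over the alternatives and at 24 h from 6 to 26.

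**Figure D5:**
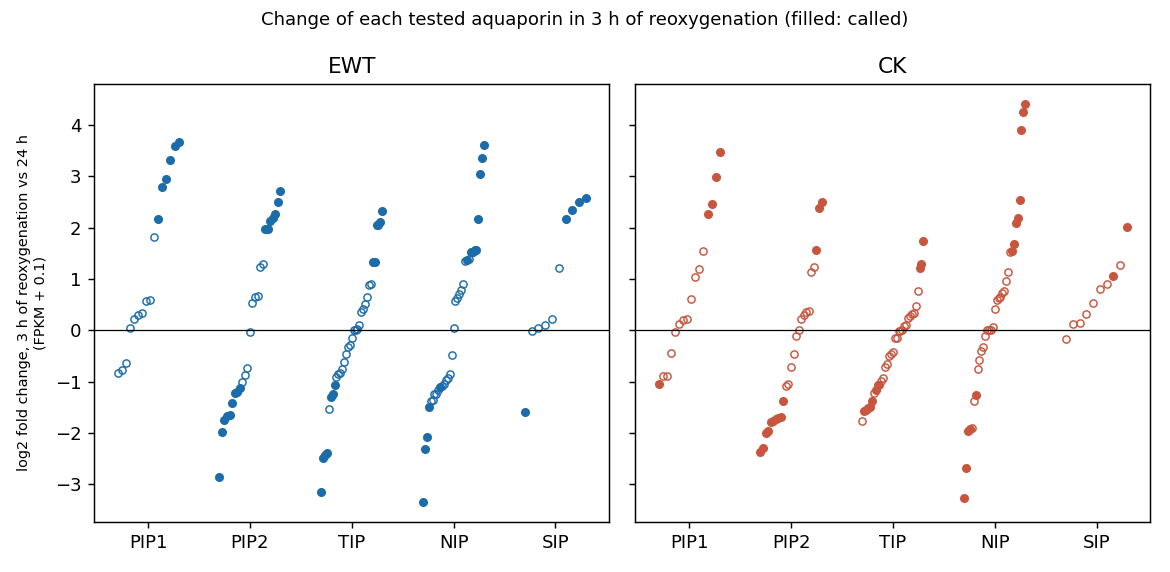
Log2 fold change of each tested aquaporin after 3 h of reoxygenation against 24 h of waterlogging (y axis, log2(FPKM + 0.1) scale), by type (x axis), with EWT in the left panel and CK in the right. Filled points are called and open points are not. Called genes lie on both sides of 0 in the PIP2, TIP and NIP types, and called PIP1 genes lie above 0 with 1 exception in CK.

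The comparison of 24_3 h with 24 h asked what 3 h of reoxygenation changed. In EWT 32 aquaporins were called higher and 22 lower, where 13.3% and 11.7% of all tested genes were. In CK 20 were higher and 23 lower, where 14.1% and 13.3% of all tested genes were. The split depends on the scaling: when libraries were divided by all their fragments, 40 were higher and 13 lower in EWT and 28 and 15 in CK, and the median of all genes became 0.44 in EWT, against 0.06, and 0.31 in CK, against 0.00. Among the 75 genes lower at 24 h, 31 in EWT and 20 in CK were called higher after reoxygenation and 9 in each were called lower again. Of the genes higher at 24 h, 11 of 16 in EWT and 6 of 9 in CK were called lower. These counts share the 24 h libraries on both sides and are given as a description.

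By type, PIP1 genes gave 6 higher and 0 lower in EWT and 4 higher and 1 lower in CK, and NIP genes 9 and 5 in EWT and 8 and 5 in CK. PIP2 genes gave 7 higher and 9 lower in EWT and 3 and 10 in CK, TIP genes 6 and 7 in EWT and 3 and 7 in CK, and SIP genes 4 and 1 in EWT and 2 and 0 in CK. The TIP sum at 24_3 h was 768 to 1212 FPKM in EWT and 794 to 1173 FPKM in CK, below every library of the other times in both cultivars. In FPKM the aquaporin total was at its lowest after reoxygenation, with 1923 to 2952 FPKM in EWT and 1600.2 to 2209 FPKM in CK, against 4992 to 6607 FPKM in EWT and 3332 to 4233 FPKM in CK at 24 h. As a share of all fragments the total was 0.287% to 0.413% in EWT at 24_3 h, against 0.531% to 0.662% at 24 h. In CK the shares overlapped, with 0.217% to 0.31% at 24_3 h, against 0.299% to 0.403% at 24 h.

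Genes that drive transport beside aquaporins moved partly with them. Of 47 tested plasma membrane ATPase genes, the proton pumps that energise the membrane of the PIPs, 27 were lower and 1 higher in EWT at 24 h and 29 and 1 in CK, and 26 in EWT and 23 in CK were higher after reoxygenation. Of all tested genes 13.3% in EWT and 14.1% in CK were higher after reoxygenation. Of 102 tested V-type proton ATPase subunits of the vacuole, 41 were lower and 4 higher in EWT at 24 h and 44 and 6 in CK. The vacuolar pyrophosphatases, the other proton pump of the tonoplast, gave 8 lower and 7 higher of 37 in EWT at 24 h and 11 and 11 in CK. Summed FPKM of all 63 such genes was 865 to 1006 in EWT and 425 to 838 in CK at 12 h. At 0 h it was 261 to 298 in EWT and 211 to 236 in CK. Of 17 boron transporters, which export borate from root cells, 10 were lower and 4 higher in EWT at 24 h and 9 and 5 in CK. The shares of all genes at 24 h are those given above, and the pyrophosphatase counts in EWT were near them.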

How the data were processed

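The 40 root libraries were deposited as 1 table of FPKM values per gene and library. Per the labels and the submitters' processing notes, the authors made them from paired-end poly(A) reads with fastp, HISAT2 2.0.5 and featureCounts 1.5.0-p3; the genome build and the counting of fragments that fit several genes are not given in the sources used here. FPKM times gene length gave whole fragments (100% of values within 0.01 fragment in every library), and the library size implied by the deposited values was 0.762 to 1.30 times the fragment total. Depth was 3517588 to 9929777 fragments per library (median 6292021).

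Genes with at least 1 FPKM in at least 4 libraries (89517 of 178540) were fitted together as log2(FPKM + 0.1) with 10 group means in limma 3.58.1 (R 4.3.3, trended variance), with Benjamini-Hochberg adjustment over all tested genes; 13 comparisons were made. The pipeline was tested on simulated data with changes put only into genes of ample fragment counts. That test does not cover calls on genes with few fragments. The groups and replicates were taken from the labels. The p-values rest on the spread of libraries within groups, pooled over all 10 groups and drawn toward the trend over all genes. With only the groups compared in the fit, 18 calls on named genes were lost and 211 held. With 4 against 4 libraries an exact two-sided permutation test cannot give less than 0.0286, so single-gene calls rest on limma. Named genes were evm_TU_scaffold_965_251, the 2 members of each type with the highest mean FPKM, those of largest change at 24 h without overlap (2 a direction and cultivar), of largest interaction at 24 h and of largest difference between cultivars at 0 h (2 a direction each), and of largest change after reoxygenation (1 a direction and cultivar), plus 8 members chosen after their values were seen. The members and lists were chosen with earlier results of these data known. Limits from a count of 0 use 3 fragments and cover counting error only. Alternatives were other pseudocounts, filters, scaling, voom on the fragments, a replicate block, only the groups compared, and leaving out each library. Columns of annotation gave names, domains and coordinates.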

Additional observations from a re-analysis of the deposited data

Results flagged for a closer look

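Of 283 groups of 4 libraries looked at, 60 were sums by type or over all aquaporins. The rest were single named aquaporins with a mean of at least 1 FPKM in the group. In 16 groups, all of single genes, 1 library lay far from the other 3 by Dixon's criterion, which chance alone would meet in about 1 of 20 groups. evm_TU_scaffold_1353_175 had 53.1 FPKM in CK replicate 4 at 24_3 h, against 26.8 to 30.2 FPKM in the other 3. evm_TU_scaffold_18_33 had 734 FPKM in CK replicate 4 at 0 h, against 538 to 565 FPKM in the other 3. evm_TU_scaffold_297_144 had 6.13 FPKM in EWT replicate 4 at 24 h, against 1.01 to 1.33 FPKM in the other 3. evm_TU_scaffold_1505_118 had 70.5 FPKM in CK replicate 4 at 0 h, against 35.9 to 39.8 FPKM in the other 3. evm_TU_scaffold_1505_118 had 16.4 FPKM in CK replicate 4 at 12 h, against 0 to 0.759 FPKM in the other 3. evm_TU_scaffold_3999_165_evm_TU_scaffold_3999_166 had 2.00 FPKM in CK replicate 1 at 24 h, against 0.738 to 0.832 FPKM in the other 3. evm_TU_scaffold_1735_49 had 1.21 FPKM in EWT replicate 1 at 24_3 h, against 2.92 to 3.08 FPKM in the other 3. evm_TU_scaffold_1096_52 had 3.08 FPKM in CK replicate 4 at 24 h, against 6.70 to 7.45 FPKM in the other 3. evm_TU_scaffold_1096_52 had 7.99 FPKM in CK replicate 3 at 24_3 h, against 1.79 to 2.54 FPKM in the other 3. evm_TU_scaffold_3999_167 had 22.6 FPKM in CK replicate 2 at 0 h, against 36.6 to 37.4 FPKM in the other 3. evm_TU_scaffold_3999_167 had 87.6 FPKM in EWT replicate 1 at 0 h, against 56.6 to 60.1 FPKM in the other 3. evm_TU_scaffold_1557_372 had 518 FPKM in CK replicate 2 at 0 h, against 424 to 439 FPKM in the other 3. evm_TU_scaffold_1557_372 had 36.7 FPKM in CK replicate 4 at 24_3 h, against 13.8 to 17.5 FPKM in the other 3. evm_TU_scaffold_5813_41 had 4.89 FPKM in EWT replicate 4 at 0 h, against 5.87 to 5.99 FPKM in the other 3. evm_TU_scaffold_710_92 had 26.8 FPKM in EWT replicate 1 at 0 h, against 11.1 to 13.4 FPKM in the other 3. evm_TU_scaffold_10013_45 had 377 FPKM in CK replicate 4 at 0 h, against 272 to 281 FPKM in the other 3. CK replicate 4 at 0 h was the high library for 3 of these genes, 1 of them a TIP2-1 and the other 2 TIP1-1 matches.

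The change from 0 h differed between the cultivars for 10 named aquaporins at 12 h and 8 at 24 h, by limma's interaction test with adjusted p at most 0.05. Each value is the log2 change in EWT minus that in CK. At 12 h it was 5.11 for evm_TU_scaffold_285_98, -3.88 for evm_TU_scaffold_508_222, -3.34 for evm_TU_scaffold_7365_29, 2.60 for evm_TU_scaffold_9204_123, 3.37 for evm_TU_scaffold_7966_16, 2.98 for evm_TU_scaffold_1557_372, 1.17 for evm_TU_scaffold_710_92, 1.05 for evm_TU_scaffold_12287_199, 1.43 for evm_TU_scaffold_344_54 and 1.25 for evm_TU_scaffold_10013_45. At 24 h it was 4.72 for evm_TU_scaffold_285_98, -2.28 for evm_TU_scaffold_1735_49, -4.31 for evm_TU_scaffold_508_222, -3.34 for evm_TU_scaffold_7365_29, 4.20 for evm_TU_scaffold_9204_123, 1.72 for evm_TU_scaffold_1557_372, 1.42 for evm_TU_scaffold_10013_45 and -2.71 for evm_TU_scaffold_1863_73. At 12 h the call of evm_TU_scaffold_12287_199 was lost in 17 of 26 alternatives, that of evm_TU_scaffold_10013_45 in 16 of 26, that of evm_TU_scaffold_9204_123 in 12 of 25, that of evm_TU_scaffold_7966_16 in 2 of 25 and that of evm_TU_scaffold_508_222 in 1 of 25. At 24 h the call of evm_TU_scaffold_1735_49 was lost in 15 of 25, that of evm_TU_scaffold_1863_73 in 2 of 25 and that of evm_TU_scaffold_508_222 in 1 of 25. For evm_TU_scaffold_285_98 all CK libraries were at 0, so its values are the changes in EWT. Likewise evm_TU_scaffold_7966_16 was at 0 in EWT at 0 and 12 h, and evm_TU_scaffold_9204_123 was at 0 in 3 of 4 EWT libraries at 0 h and in all 4 at 12 and 24 h, so their values mainly restate the change in CK. evm_TU_scaffold_508_222 and evm_TU_scaffold_7365_29 were at or near 0 in both cultivars at 12 and 24 h, as was evm_TU_scaffold_9204_123 at 24 h, so those values restate the difference at 0 h, and evm_TU_scaffold_1863_73 was at 0 in both at 0 h, so its value restates the difference at 24 h.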

How the results depend on the processing

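No call on a single named gene changed sign in any alternative run. The balance of calls did turn for CK after reoxygenation, with 20 aquaporins higher and 23 lower in the reported fit and 28 and 15 with all-fragment scaling. That scaling also moved 26 of 60 summed levels by more than 1 SD. The interaction counts depended most on the settings. At 12 h the 18 aquaporins called became 28 with a pseudocount of 1, 10 with a pseudocount of 0.01, 10 under a stricter filter (mean of at least 5 FPKM) and 36 at an unadjusted p. At 24 h the 16 called became 6 under the stricter filter and 26 at an unadjusted p. The stricter filter tested 65 aquaporins and 22706 genes, and with fewer genes tested the calls were 50 in EWT at 12 h (79 in the reported fit), 52 in CK at 12 h (83) and 54 at 24 h (84), and 18, 25 and 26 for EWT against CK at 0, 12 and 24 h (33, 48 and 49).

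Leaving out 1 library at a time gave 54 to 65, 73 to 79 and 89 to 93 calls in EWT at 3, 12 and 24 h, 59 to 64, 80 to 83 and 83 to 86 in CK, 46 to 54 in EWT and 39 to 42 in CK for 24_3 h against 24 h, 27 to 33, 42 to 50 and 43 to 47 for EWT against CK at 0, 12 and 24 h, and 13 to 20 and 13 to 19 for the interactions at 12 and 24 h. Over all calls on named genes and all left-out libraries, 94 calls were lost and 1882 held. The interaction of evm_TU_scaffold_1735_49 at 24 h was lost in 10 of these, with adjusted p from 0.0645 to 0.132. Scaling by all fragments moved the median of all genes to -0.26, -0.61 and -0.52 in EWT at 3, 12 and 24 h and to -0.51 in CK at 24 h.

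The libraries share replicate numbers. Samples of the same number showed no strong joint deviation (correlations -0.0820 to 0.0786, none above 0.1). This check gave no clear sign of pairing but cannot exclude that the numbers pair the libraries. With the replicate block 63 aquaporins were called in CK at 3 h (62 without), 54 in EWT and 42 in CK after reoxygenation (54 and 43 without), and 17 and 14 for the interactions at 12 and 24 h (18 and 16 without).

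Depth limits low genes: below about 1 FPKM a value rests on few fragments, and calls there moved with the pseudocount.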
